A study of Mus musculus with 41 samples.

Results

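Myosin heavy chains are the motor proteins of the thick filament, and the 9 mouse genes that encode the chains of striated muscle are described here: Myh1, Myh2, Myh3, Myh4, Myh8, Myh13, Myh6, Myh7 and Myh7b. They are 9 of 21755 protein-coding genes on chromosomes 1 to 19 and X, and were chosen by name. For each gene, peaks of 4 histone post-translational modifications (hPTMs) were read at the promoter (2 kb on either side of every annotated transcription start site, TSS), over the gene body and in the space between neighbouring members. The hPTMs were H3K18la, which is lactylation of lysine 18 of histone H3, H3K27ac, H3K4me3 and H3K27me3, profiled by CUT&Tag, a method that tethers a transposase to antibody-bound chromatin so that DNA beside a modified histone is cut and sequenced. H3K18la, H3K27ac and H3K4me3 are treated as marks of active chromatin and H3K27me3 as the mark of Polycomb repression. The deposited data are 24 peak lists from 41 samples, with 1 list for each pair of cell type and hPTM: 17 lists rest on 2 samples and 7 on 1. Each peak has a total signal that was not scaled to sequencing depth, so a peak is given by its rank within its own list (rank 1 is the largest total signal), and no value has a replicate error.

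H3K18la was profiled in 8 cell types, H3K27me3 in 7, H3K27ac in 5 and H3K4me3 in 4. The muscle lineage was represented by primary myoblasts (MB), by myotubes made from them with 3 days of differentiation medium (MT) and by whole gastrocnemius muscle (GAS). The other cell types were E14 embryonic stem cells in serum-lif (mESC-ser) or 2i-lif medium (mESC-2i), bone-marrow-derived macrophages cultured for 7 days with M-CSF (BMDM), macrophages sorted as CD45+CD11b+F4/80+CD64+ from calf muscle 2 days after hind-limb ischemia (PIM) and adipocyte nuclei (ADIPO). The strain label of all groups other than the stem cells is C57BL/6. GAS and PIM came from female mice of 8 to 12 weeks, and ADIPO from female AdipoCre-NuTRAP mice of 10 weeks, in which a tag on the nuclei depends on an adipocyte Cre. No gene was deleted in any group. The stem cells are 1 line, MT and MB are the same kind of culture before and after differentiation, and GAS contains every cell type of the muscle, so in GAS fewer nuclei of a type and less of an hPTM per nucleus cannot be told apart. No group represents heart muscle.

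A muscle fibre is named after the heavy chain it carries. In the limb muscle of adult mice the fast chains are encoded by Myh2 (type IIA), Myh1 (type IIX) and Myh4 (type IIB) and the slow chain by Myh7, while Myh3 (embryonic) and Myh8 (neonatal) serve developing and regenerating fibres and Myh13 serves the extraocular muscles. Myh6 and Myh7 encode the alpha and beta chains of the heart, and Myh7b is an ancient relative of both. The fast and developmental genes lie in a cluster in which a distal stretch of DNA between Myh3 and Myh2 is known as a shared enhancer, and Myh6, Myh7 and Myh7b each carry a microRNA in an intron.

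The cluster on chromosome 11 held 6 members in the order Myh3, Myh2, Myh1, Myh4, Myh8 and Myh13, all on the plus strand, between chr11:67078300 and chr11:67371586 of GRCm38 (the mm10 build of the lists). Myh7 and Myh6 lay in tandem on the minus strand at chr14:54970684-54994626 and chr14:54941921-54966927, and Myh7b on the plus strand at chr2:155611212-155634307. The space between Myh3 and Myh2 spanned 68735 bp, against 2534 bp between Myh2 and Myh1, 13453 bp between Myh1 and Myh4, 16677 bp between Myh4 and Myh8, 13023 bp between Myh8 and Myh13 and 3756 bp between Myh6 and Myh7. Non-coding genes overlap these spaces: the long non-coding gene 2310065F04Rik (chr11:67112461-67120080, minus strand) lies between Myh3 and Myh2, and the antisense gene Myhas starts just before Myh4 and runs back into Myh1.

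The bases before the starts of 4 neighbours of the chromosome 11 cluster are shown because Myh1 and Myh4 carried H3K18la at their promoters in muscle lists while Myh2 and Myh8 did not, although all 4 hold the same run of 14 bases, given in capitals. The sequences are from RefSeq (GRCm38.p6), plus strand, 5′ to 3′, up to the base before the first base that RefSeq or GENCODE annotates as transcribed.
Myh2 (chr11:67170777-67171026): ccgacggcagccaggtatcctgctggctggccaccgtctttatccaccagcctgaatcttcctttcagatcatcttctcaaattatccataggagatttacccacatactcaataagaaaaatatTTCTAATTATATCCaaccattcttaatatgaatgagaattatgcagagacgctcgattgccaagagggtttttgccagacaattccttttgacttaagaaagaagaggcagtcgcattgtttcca
Myh1 (chr11:67199852-67200051): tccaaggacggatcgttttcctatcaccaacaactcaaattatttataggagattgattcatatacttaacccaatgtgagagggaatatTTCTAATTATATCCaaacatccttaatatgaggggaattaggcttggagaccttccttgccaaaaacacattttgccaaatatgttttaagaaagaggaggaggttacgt
Myh4 (chr11:67237562-67237811): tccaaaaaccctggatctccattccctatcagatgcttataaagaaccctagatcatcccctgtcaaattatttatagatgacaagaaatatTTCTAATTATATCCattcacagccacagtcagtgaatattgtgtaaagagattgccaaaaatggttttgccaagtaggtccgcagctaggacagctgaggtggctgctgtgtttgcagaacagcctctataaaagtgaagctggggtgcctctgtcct
Myh8 (chr11:67276874-67277123): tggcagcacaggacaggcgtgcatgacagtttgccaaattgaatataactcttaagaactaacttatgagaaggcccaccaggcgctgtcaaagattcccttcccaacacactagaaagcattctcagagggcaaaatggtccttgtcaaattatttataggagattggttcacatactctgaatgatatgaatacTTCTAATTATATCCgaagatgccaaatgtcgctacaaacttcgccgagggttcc

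The run TTCTAATTATATCC was the longest that the 250 bases before the RefSeq start of all 4 genes share, and on either strand it occurred in 4 of 32851 promoter entries of the same length, those of these 4 genes. It was found by comparing these promoters, so its rarity elsewhere is a description. Counted from the RefSeq start, the run began at -125 in Myh2, at -160 in Myh1, at -158 in Myh4 and at -54 in Myh8. Within the same 250 bases a TATA box (TATAAA, forward strand) stood at -29 in Myh3, at -32 in Myh1 and at -31 in Myh4 with a further match upstream, and these letters were in none of the other 6 members, against 7.59% of all promoter entries. The M-CAT motif (CATTCC, either strand), a site read by TEAD factors, was found in Myh1, Myh4, Myh6 and Myh7 and in 12.6% of all promoters. E-boxes (CANNTG), the site of MyoD-type factors, were found in every member but Myh2 and Myh1 and in 66.2% of all promoters. Within 500 bp of the gene start the observed over expected CpG ratio of the 9 members lay below the median of 21755 genes (0.558), from 0.114 at Myh6, above 10.1% of all gene starts, to 0.42 at Myh2, above 40.9% of them.

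The promoters of the members with the strongest H3K18la in myotubes are shown next, with the E-boxes in capitals and Myh7 on the minus strand.
Myh3 (chr11:67078050-67078299): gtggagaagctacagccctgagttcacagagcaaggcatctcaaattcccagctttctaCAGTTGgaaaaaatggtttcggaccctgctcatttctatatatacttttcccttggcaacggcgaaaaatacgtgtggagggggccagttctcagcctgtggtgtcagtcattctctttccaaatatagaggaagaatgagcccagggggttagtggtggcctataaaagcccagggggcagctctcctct
Myh7 (chr14:54994627-54994876): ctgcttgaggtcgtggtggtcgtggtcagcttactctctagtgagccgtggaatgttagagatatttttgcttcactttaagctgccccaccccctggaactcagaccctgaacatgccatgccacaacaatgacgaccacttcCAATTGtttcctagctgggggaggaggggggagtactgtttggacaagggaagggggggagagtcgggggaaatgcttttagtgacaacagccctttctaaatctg
Myh7b (chr2:155610993-155611211): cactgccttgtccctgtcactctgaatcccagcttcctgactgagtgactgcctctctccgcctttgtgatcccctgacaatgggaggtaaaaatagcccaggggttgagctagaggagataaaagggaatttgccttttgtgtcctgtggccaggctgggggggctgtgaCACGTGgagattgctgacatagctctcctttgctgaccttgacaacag

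The lists differed in size, from 11002 peaks (mESC-ser H3K4me3) to 36813 (GAS H3K18la), and the share of the genome under peaks ran from 0.856% in BMDM to 5.19% in MT for H3K18la and from 2.08% in MB to 6.56% in MT for H3K27me3. Marker promoters were checked for H3K18la. All 5 stem cell markers were called in both mESC lists and in none of the other 6, all 6 muscle markers in MT and GAS, all 5 macrophage markers in BMDM and PIM and all 5 adipocyte markers in ADIPO. MB held 3 of the 6 muscle markers (Des, Myod1 and Ttn), and its list was the smallest of the H3K18la lists in peaks (13550). Calls outside the labelled type also occurred: of the adipocyte markers PIM held 3, BMDM 2, GAS 2 and MB 1, of the muscle markers ADIPO held 2 (Acta1 and Des), and of the macrophage markers MT and ADIPO held 2 each and GAS and both mESC lists 1 each. GAS also held 3 of 3 endothelial and 3 of 3 fibroblast markers, and none of the 4 heart muscle markers was called for H3K18la in any list. Of the endothelial markers BMDM and PIM held 2 each and MB, MT and both mESC lists 1 each. Of the fibroblast markers ADIPO held 2 and MT and both mESC lists 1 each. Of the satellite cell markers, Myf5 was called in MB, MT and GAS and Pax7 in no H3K18la list. With every list reduced to the bases of the smallest list of its hPTM, 20 of the 48 member promoter calls over all lists were left, and with its 5000 peaks of largest signal 22. The part of the other cells of GAS in the results was not tested.

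H3K18la calls at the members differed between the muscle lists. MB had 2 of the 9 promoters called (Myh3 and Myh1) against 11.1% of all promoters in that list. MT had 6 of 9 (Myh3, Myh1, Myh4, Myh6, Myh7 and Myh7b) against 34.8%, and GAS had 1 of 9 (Myh4) against 36.1%. Outside muscle, mESC-ser had 1 of 9 (33.4%), mESC-2i 2 of 9 (37.8%), BMDM 0 of 9 (18.5%), PIM 1 of 9 (37.8%) and ADIPO 1 of 9 (44.7%), and 4 of these 5 calls were at Myh7b. With the 5000 peaks of largest signal in each list, 4 of the 9 muscle calls were left (Myh3, Myh7 and Myh7b in MT and Myh4 in GAS), and with lists reduced to equal bases 2 (Myh7 and Myh7b in MT). The counts amount to 9 of 27 combinations of member and muscle list and 5 of 45 combinations with other lists. No member was called in all 3 muscle lists and in none of the other 5, a class of 77 genes (0.354%), whereas 4 members (Myh1, Myh4, Myh6 and Myh7) were called in at least 1 muscle list and in none of the other 5, a class of 1055 genes (4.85%).

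**Figure D1:**
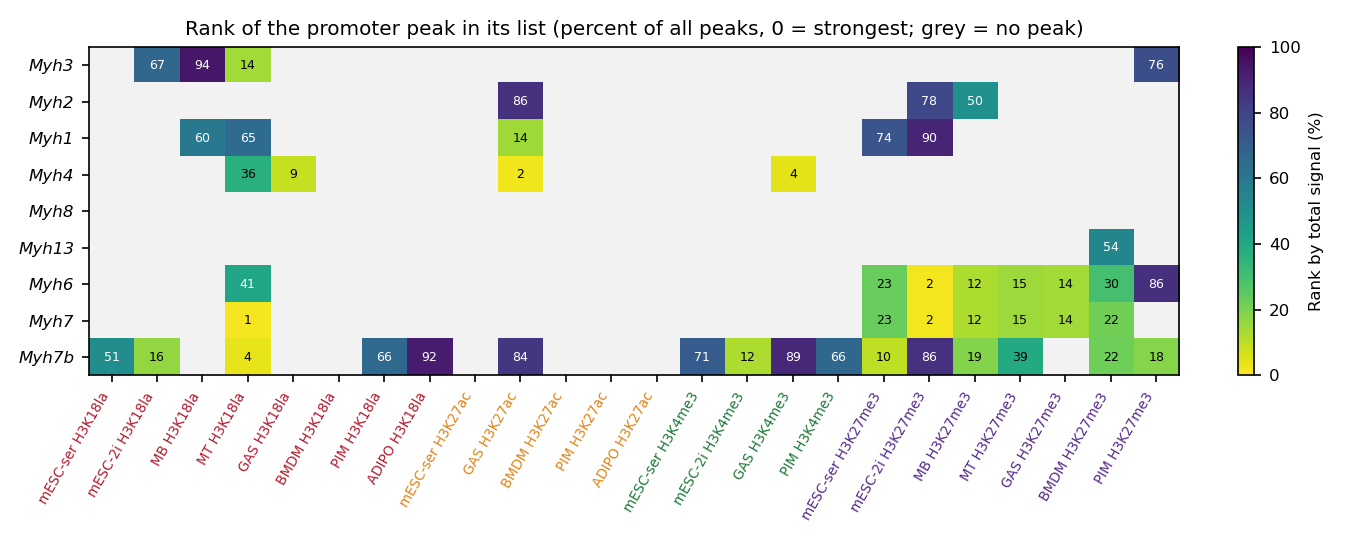
Rank of the strongest peak within 2 kb of any annotated TSS of each member (rows) in each of the 24 lists (columns, coloured by hPTM), as a percent of the peaks in that list; 0 is the strongest peak and grey marks no peak. Myh8 has no peak in any list, and Myh4 has the best rank of the 9 in each GAS list of an active hPTM. Myh6 and Myh7 are called mainly for H3K27me3. Of the 48 calls, 40 have a peak within 2 kb of the first base of the gene. The others are at internal starts of short transcripts. The strongest peak is shown, and for some of the 40 it is another peak, inside the gene. This holds for H3K27me3 of Myh7 (GAS and both mESC lists) and of Myh7b (mESC-ser). For Myh7 the mESC-ser peak near the gene start ranks at 95.2%, against 23.1% for the internal peak shown.

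The developmental gene Myh3 had its promoter peak in cultured muscle cells. In MB the peak (chr11:67075813-67078432) was 2620 bp wide with rank 12701 of 13550, close to the bottom of its list. In MT it was 6022 bp wide (chr11:67074630-67080651) with rank 4697 of 33991, and its maximum lay 632 bp before the gene start. GAS had no H3K18la, H3K27ac or H3K4me3 peak at this promoter. Both peaks cover the promoter bases printed above. Within its list the peak stood 93.7% of the way down in MB and 13.8% in MT. The remaining call, in mESC-2i, began 1462 bp inside the gene and is not at the start itself.

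Myh1, the type IIX gene, had a peak of nearly the same extent in MB and MT. It spanned 2614 bp in MB (chr11:67197960-67200573, rank 8090 of 13550, 59.7%) and 2566 bp in MT (chr11:67198263-67200828, rank 22149 of 33991, 65.2%). The positions of maximum signal of both peaks fell within chr11:67199463-67199465 (offsets of -588 and -589 from the gene start). This peak filled most of the space between Myh2 and Myh1 (82.6% of it in MB and 70.6% in MT) and also contains the start of the antisense gene 9430073C21Rik. GAS lacked it: the GAS H3K18la peak nearest to the start lay inside the gene (chr11:67204061-67206095, rank 31667 of 36813). The bases around the maximum shared by MB and MT are shown, plus strand, with the positions of maximum signal in capitals.
Upstream of Myh1 (chr11:67199404-67199524): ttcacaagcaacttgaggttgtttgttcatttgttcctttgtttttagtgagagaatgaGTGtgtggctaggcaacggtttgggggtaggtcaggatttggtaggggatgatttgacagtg

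Myh4, the type IIB gene and the fastest chain of the limb, was the member called for H3K18la in both MT and GAS. The GAS peak was 7442 bp wide (chr11:67230923-67238364, rank 3166 of 36813, 8.6%) and the MT peak 2755 bp (chr11:67235610-67238364, rank 12388 of 33991, 36.4%). Both ended at the same base and covered the first 336 bp of the gene, and both contain the start of the antisense gene Myhas. Myh4 had no peak of any hPTM at its promoter in MB, ADIPO, BMDM, PIM or either mESC list.

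The other 2 active hPTMs were profiled in muscle only in GAS, and there too Myh4 had the best-ranked promoter peak of the 9. The H3K27ac peak over the Myh4 start was 18340 bp wide with rank 807 of 35286 (2.29%), and the H3K4me3 peak was 6690 bp wide with rank 1182 of 28915 (4.09%), in the widest 1% of that list. Both reached further into the gene than H3K18la did: 43.3% of the gene body lay under H3K27ac and 23.6% under H3K4me3, against 1.5% under H3K18la. Myh1 carried H3K27ac across its start in GAS (9358 bp, rank 5013, 14.2%) and Myh2 a peak that began 554 bp inside the gene (2974 bp, rank 30318, 85.9%). Neither gene had an H3K4me3 peak at the promoter, but Myh2 had one of 935 bp inside the gene, past the promoter window (chr11:67173482-67174416, rank 21062 of 28915, 72.8%). H3K27ac was thus called at 4 of 9 members in GAS (Myh2, Myh1, Myh4 and Myh7b) against 47.0% of all promoters, and at 0 of 36 combinations with other lists, where the shares of all promoters were 40.2% in mESC-ser, 34.0% in BMDM, 48.8% in PIM and 46.1% in ADIPO. For H3K4me3, GAS had 2 of 9 (Myh4 and Myh7b) against 64.2%, and mESC-ser, mESC-2i and PIM had Myh7b alone, against 48.8%, 61.8% and 59.4%.

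Between Myh3 and Myh2, H3K18la formed a broad domain in MT and GAS that was absent from the MB list. GAS had 5 peaks that covered 52.9% of this space (36371 bp) and MT had 5 that covered 48.0% (32995 bp), with 23777 bp in common. MB, BMDM, PIM and both mESC lists had no H3K18la peak there, and ADIPO had 1 of 1577 bp (2.29% of the space, rank 27234 of 28752). The largest GAS peak ran over the whole of 2310065F04Rik (chr11:67109116-67129877, 20762 bp) and had rank 114 of 36813, within the top 0.31%, above the promoter peak of Myh4 in the same list. Its counterpart in MT (chr11:67113540-67128115, 14576 bp) had rank 2178 of 33991 (6.41%). GAS H3K27ac had a peak of 24597 bp over the same gene (rank 211 of 35286, 0.598%), and GAS H3K4me3 covered 22.0% of the space with 6 smaller peaks, the strongest of 4865 bp at rank 4486. The 4 other spaces of the chromosome 11 cluster were covered less evenly: the space from Myh1 to Myh4 was 65.2% covered by H3K18la and 93.5% by H3K27ac in GAS, whereas no active hPTM had a peak in any list between Myh4 and Myh8 or between Myh8 and Myh13.

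**Figure D2:**
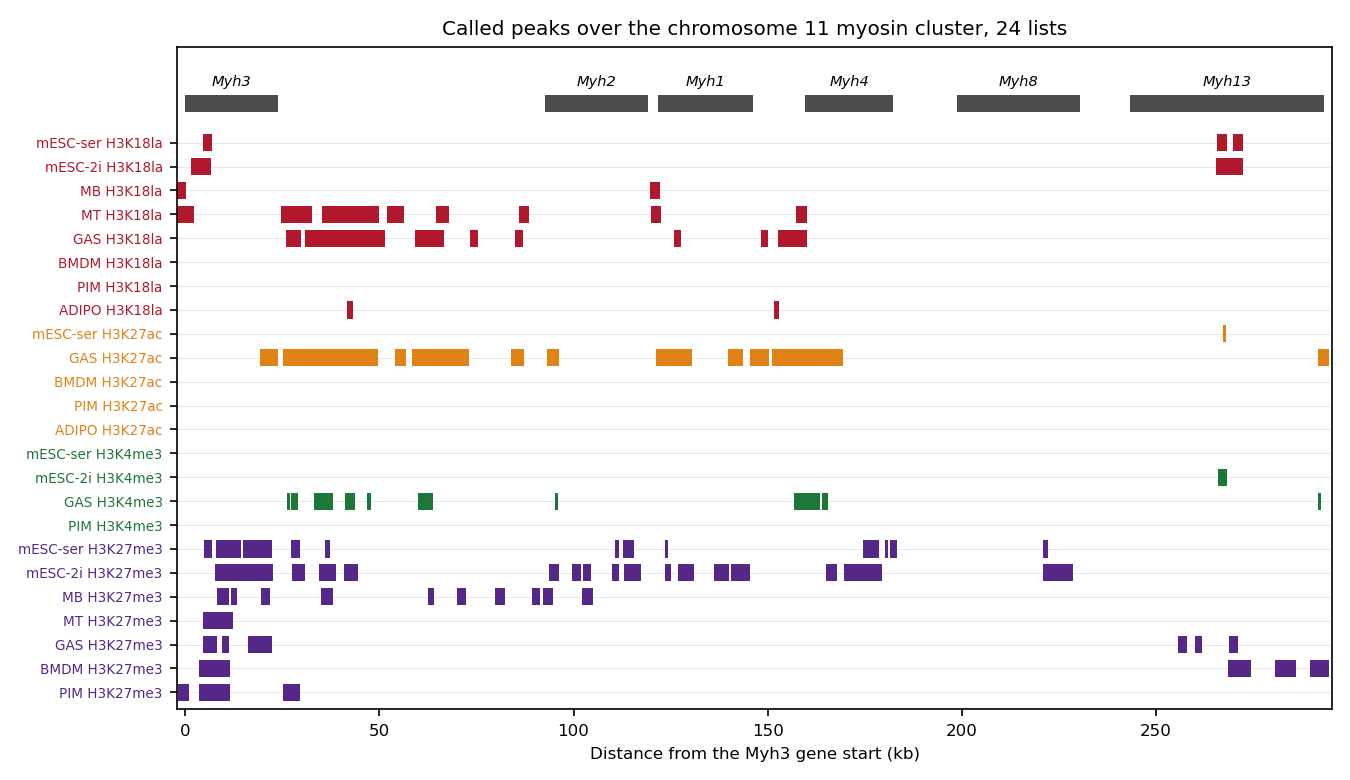
Called peaks of the 24 lists (rows, coloured by hPTM) along the chromosome 11 cluster, by distance from the Myh3 gene start in kb; grey bars are the members' gene bodies. GAS and MT have several H3K18la peaks after Myh3 and before Myh4, GAS also has H3K27ac and H3K4me3 peaks there, and the other lists of H3K27ac and H3K4me3 (none of which is from MB or MT) have none.

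In GAS the hPTMs could be compared base by base over the chromosome 11 locus (297287 bp, the cluster with 2 kb at each end). H3K18la peaks covered 47515 bp, of which 91.9% lay under H3K27ac peaks and 38.7% under H3K4me3 peaks. The reverse shares were 47.4% of H3K27ac and 73.8% of H3K4me3, since the H3K27ac peaks covered 92215 bp and the H3K4me3 peaks 24945 bp. No base was under both H3K18la and H3K27me3 in GAS, MT or MB, whereas in mESC-ser 1899 bp were under both (25.4% of its H3K18la bases in the locus). The maximum of the GAS H3K18la domain, that of the GAS H3K27ac domain and that of an H3K27me3 peak of mESC-2i fell within 53 bp of each other in 2310065F04Rik, outside its annotated exons. Those positions are in capitals in the sequence, plus strand.
2310065F04Rik (chr11:67115126-67115246): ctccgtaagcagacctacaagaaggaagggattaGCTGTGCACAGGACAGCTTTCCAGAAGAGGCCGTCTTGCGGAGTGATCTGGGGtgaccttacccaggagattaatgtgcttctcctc

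The same space carried H3K27me3 in 4 lists of cell types without H3K18la there. H3K27me3 covered 18% of it in MB (6 peaks), 16.3% in mESC-2i (3 peaks), 5.09% in mESC-ser (2 peaks) and 6.4% in PIM (1 peak), and it had no peak there in MT, GAS or BMDM. Of the 11214 bp under H3K27me3 in mESC-2i, 10344 bp were under H3K18la in GAS. Of the 12384 bp in MB, 4643 bp were under H3K18la in GAS and 2951 bp in MT. MB thus had H3K27me3 peaks and no H3K18la peak in this space and MT the reverse, from 1 sample of MB and 2 of MT for each hPTM.

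H3K27me3 over the gene bodies differed between members. Myh3 had a peak within its body in all 7 lists, covering from 29.1% of the gene in MB to 67.3% in mESC-ser, with 32.1% in MT and 48.7% in GAS. The fast genes Myh1 and Myh4 and the neonatal Myh8 were covered in the stem cell lists alone: in mESC-2i 58.4% of Myh1, 54.8% of Myh4 and 24.2% of Myh8 lay under peaks, and in mESC-ser 3.79%, 26.3% and 4.07%. Myh2 was covered by 50% in mESC-2i, 14.1% in mESC-ser and 19.2% in MB. Myh13 was covered in GAS (13.0%) and BMDM (30.5%). MT and GAS therefore had no H3K27me3 peak over Myh2, Myh1, Myh4 or Myh8, and neither did BMDM or PIM, which had no active peak there.

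**Figure D3:**
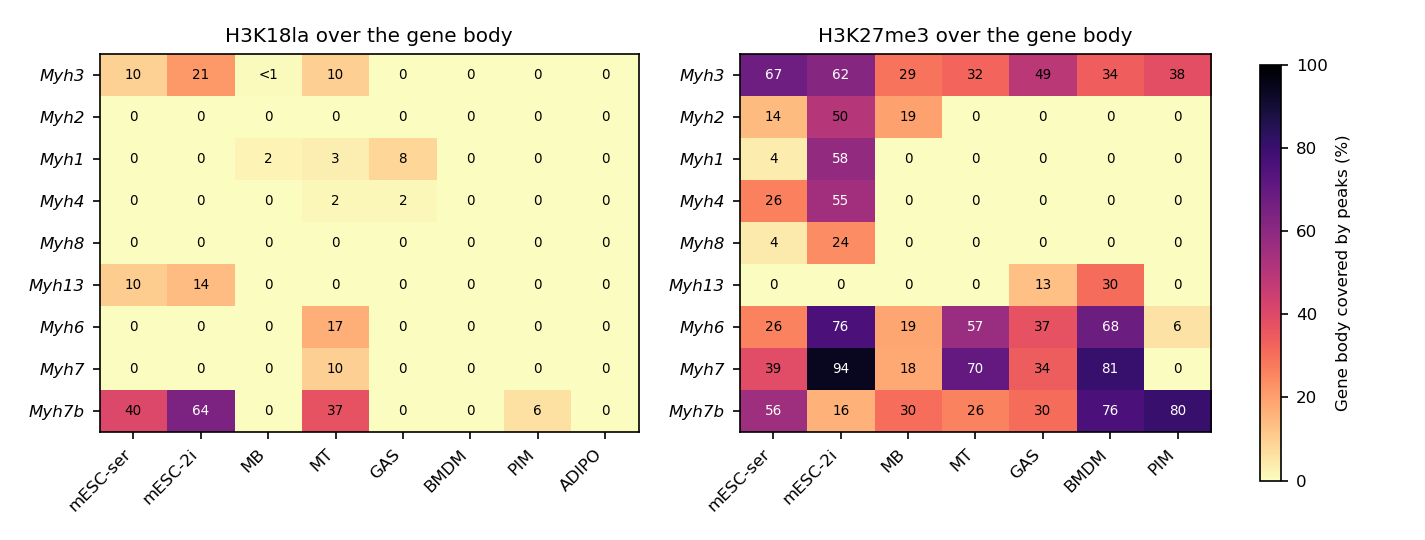
Percent of each member's gene body under H3K18la peaks (left, 8 cell types) and H3K27me3 peaks (right, 7 cell types). H3K27me3 covers Myh3 in every list, the fast genes mainly in mESC, and Myh6, Myh7 and Myh7b in nearly every list, while H3K18la covers at most 64% of a body, at Myh7b in mESC-2i.

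Counted as called or not, H3K27me3 was over 8 of 9 bodies in mESC-ser (29.6% of all genes), 8 of 9 in mESC-2i (26.3%), 5 of 9 in MB (14.5%), 4 of 9 in MT (21.6%), 5 of 9 in GAS (26.1%), 5 of 9 in BMDM (20.4%) and 3 of 9 in PIM (27.2%). The members are 22418 to 49929 bp long, a longer gene has more room for a peak, and these shares were not adjusted for length. At promoters the counts were 4 of 9 in mESC-ser (27% of all promoters), 5 of 9 in mESC-2i (22.5%), 4 of 9 in MB (12.5%), 3 of 9 in MT (20.1%), 2 of 9 in GAS (23.9%), 4 of 9 in BMDM (19.2%) and 3 of 9 in PIM (26.4%). Most of these calls belonged to Myh6, Myh7 and Myh7b, and 4 of them lie at internal or late transcript starts and not at the gene start (Myh7 in MB and MT, Myh6 in PIM and Myh7b in mESC-2i). Among the chromosome 11 genes, Myh2 was called in mESC-2i and MB, Myh1 in both mESC lists at about 1.7 kb inside the gene (peak edges at 1731 and 1730 bp), Myh3 in PIM, and Myh13 in BMDM at an internal transcript start.

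Myh7, the slow and beta-cardiac gene, had a single H3K18la peak across the 8 lists, in MT. It was among the largest of that list: 18301 bp wide (chr14:54992276-55010576), rank 470 of 33991 (1.38%), and in the widest 1.1%. Most of it lay upstream of the gene, with the maximum at -9362 bp from the start. MB and GAS had no H3K18la peak at Myh7 or Myh6, and no list of H3K27ac or H3K4me3 had a peak in the locus, GAS included. The H3K18la call of Myh6 in MT did not come from its main start but from internal transcript starts near the end of the gene (chr14:54945307-54949451, 17476 bp inside the gene, rank 13902 of 33991), where the peak also covers the Mir208a hairpin.

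H3K27me3 lay over much of the Myh6 and Myh7 locus (56706 bp). It covered 81.8% of it in mESC-2i, 76.0% in BMDM, 64.9% in MT, 40.7% in GAS, 34.1% in mESC-ser, 24% in MB and 5.27% in PIM, where these lists covered 2.08% to 6.56% of the genome. The 3756 bp between the genes were covered completely in mESC-2i, MB, MT, GAS and BMDM, by 93.1% in mESC-ser and not at all in PIM. At the start of Myh7 itself the muscle lists differed: GAS had an H3K27me3 peak of 7432 bp directly upstream (chr14:54994687-55002118, rank 5664 of 36400), MB and MT had none within 2 kb, and in MT the nearest H3K27me3 peak (chr14:54986556-54991554) ended before the H3K18la domain began. H3K18la and H3K27me3 shared 0 bp of the locus in MT. The stretch upstream of Myh7 was thus under H3K18la in MT and under H3K27me3 in GAS, and the part of other cell types of GAS in this was not tested.

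**Figure D4:**
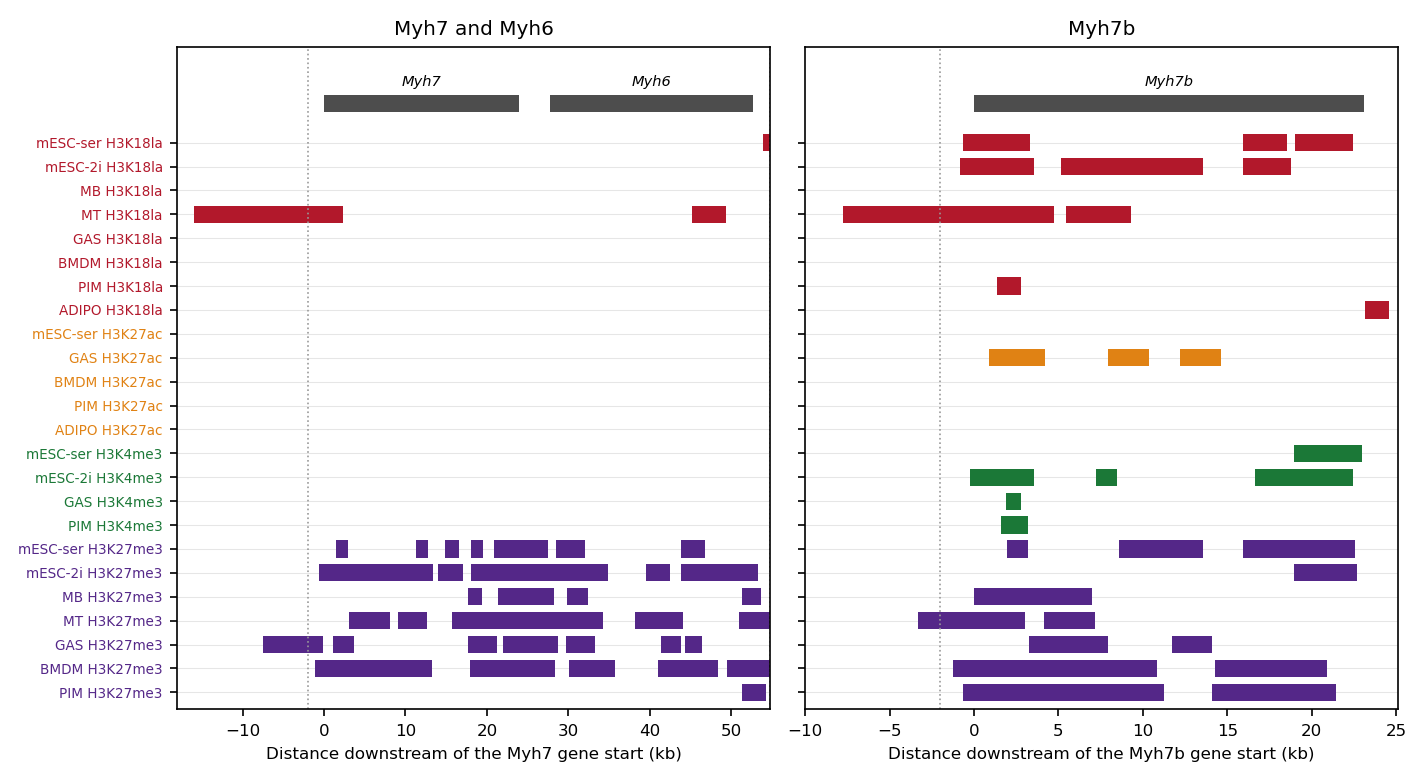
Called peaks of the 24 lists over Myh7 and Myh6 (left, by distance downstream of the Myh7 start in kb) and over Myh7b (right, by distance downstream of its start); grey bars are gene bodies. Dotted lines mark 2 kb upstream of the first gene, and peaks wholly outside the locus are left out; among the H3K18la lists MT alone has a peak across the Myh7 start, and at Myh7b its peak reaches furthest upstream.

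Myh7b was called for H3K18la in more cell types than any other member. MT had a peak of 12473 bp (chr2:155603449-155615921, rank 1222 of 33991, 3.6%) with its maximum at -4667 bp from the gene start. In mESC-2i the peak at the start was 4332 bp wide with rank 3273 of 19908 (16.4%), and in mESC-ser it was 3935 bp wide with rank 9698 of 19057 (50.9%). PIM had a peak of 1387 bp inside the gene (rank 21082 of 32066, 65.7%), and the ADIPO call came from a peak just past the annotated end of the gene (chr2:155634358-155635772, rank 26572 of 28752). GAS, MB, BMDM and ADIPO had no H3K18la peak over Myh7b. GAS did have 3 H3K27ac peaks in the body (35.5% of it), ranked 84.2%, 81.5% and 80.6% of the way down that list, and an H3K4me3 peak of 877 bp.

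At Myh7b, H3K18la and H3K27me3 were called over the same bases in some cell types. This did not happen at Myh7, and over the chromosome 11 locus it happened in mESC-ser alone. In MT 7281 bp were under both, which is 68.9% of the H3K18la and 90.9% of the H3K27me3 bases of the locus. In mESC-ser 7296 bp were under both (73.1% and 56.8%), in PIM all 1387 bp of H3K18la, and in mESC-2i none. Peaks were called on pooled cells, so the same cells need not carry both. The maxima of 9 lists fell within chr2:155613597-155613644, in an intron of Myh7b. These 9 were H3K18la of mESC-ser and mESC-2i, H3K27ac of GAS, H3K4me3 of mESC-2i, GAS and PIM, and H3K27me3 of mESC-ser, MT and PIM. The window around them is shown, plus strand, with the stretch that holds the maxima in capitals. It holds 6 CpG in 121 bases and no base that the genome file marks as repeat.
Myh7b intron (chr2:155613560-155613680): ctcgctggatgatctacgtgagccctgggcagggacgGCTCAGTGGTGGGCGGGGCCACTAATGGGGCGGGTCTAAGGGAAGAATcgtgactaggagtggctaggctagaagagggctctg

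The 3 microRNAs in introns of Myh6, Myh7 and Myh7b are shown because each has a sequence and a hairpin of its own, which can be read apart from the host's start. Their mature sequences (RefSeq, GRCm38.p6) are given with the seed, bases 2 to 8, in capitals.
miR-208a-3p (host Myh6): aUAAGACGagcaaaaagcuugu
miR-208b-3p (host Myh7): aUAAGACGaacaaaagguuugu
miR-499-5p (host Myh7b): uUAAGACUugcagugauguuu

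The first 2 share the seed UAAGACG, and all 3 share UAAGAC at bases 2 to 7, as no other of 1738 mature mouse sequences does. The Mir208a hairpin was under an H3K18la peak in MT and under H3K27me3 in both mESC lists, GAS and BMDM. The Mir208b hairpin was under H3K27me3 in 6 lists, all but PIM, and under no active hPTM, although its host Myh7 carried H3K18la at the start in MT. The Mir499 hairpin was under H3K18la in mESC-2i and under H3K27me3 in mESC-ser and, in part, in GAS.

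Myh13, the extraocular gene, had no active hPTM at any annotated start. Inside the gene both mESC lists had H3K18la, covering 10.4% of the body in mESC-ser and 13.8% in mESC-2i. The maxima of the mESC-2i peak and of the stronger mESC-ser peak lay within chr11:67346025-67346038, in an intron. Those of the mESC-ser H3K27ac peak (994 bp) and of the mESC-2i H3K4me3 peak (2412 bp) lay there too, and no differentiated cell type had a maximum there. A further mESC-ser H3K18la peak in the gene had its maximum within chr11:67349238-67349290, together with that of a GAS H3K27me3 peak. GAS had weak H3K27ac (rank 31805 of 35286) and H3K4me3 (rank 28788 of 28915) peaks at the far end of the gene. The bases around the maxima shared by the mESC lists are shown, plus strand, with the positions of maximum signal in capitals. The window holds no CpG in 121 bases.
Myh13 intron (chr11:67345971-67346091): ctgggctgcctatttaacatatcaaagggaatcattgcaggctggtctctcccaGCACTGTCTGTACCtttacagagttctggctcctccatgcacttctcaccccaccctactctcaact

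Myh8, the neonatal gene, had no promoter peak in any of the 24 lists, a property it shares with 3000 other protein-coding genes. The single hPTM called over its body was H3K27me3, in both mESC lists.

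Whether muscle lists covered the loci more than other lists was tested on the percent of each locus under peaks, with 1 value per cell type, by an exact two-sided permutation test over the cell types, and p-values were adjusted by the Benjamini-Hochberg method over the 6 tests. The p-values measure the spread between cell types, which are not independent samples, since MT were made from MB. For H3K18la, 3 muscle against 5 other lists allow 56 assignments and a smallest p of 0.0179. For H3K27me3, 3 against 4 lists allow 35 assignments and a smallest p of 0.0286. After adjustment over 6 tests a single difference at these limits would have an adjusted p of 0.107 or 0.171, so a difference that stands alone could not pass 0.05 in this design, and a p above the threshold does not show that the groups were alike.

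Over the chromosome 11 locus H3K18la covered 16.0% in GAS, 14.4% in MT and 1.6% in MB, and 4.04% in mESC-2i, 2.52% in mESC-ser, 0.949% in ADIPO and 0 in BMDM and PIM. GAS and MT lay above all other lists and MB lay among them, below both mESC lists. The mean was 10.6% ± 7.88 (SD, n = 3) in muscle and 1.5% ± 1.75 (SD, n = 5) elsewhere, a difference of 9.14 percentage points with an exact permutation p of 0.0536 and an adjusted p of 0.321. Relative to the share of the genome that each list covered, the locus was 3.42-fold covered in GAS, 2.76-fold in MT and 1.04-fold in MB, and 0.831-fold or less in the other 5. On that scale the 3 muscle lists all lay above the others, with a difference of 2.01-fold and the smallest exact permutation p the design allows (p = 0.0179, adjusted p = 0.107).

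For the remaining loci the values overlapped between muscle and other lists. H3K18la covered 15.0% of the Myh6 and Myh7 locus in MT, 1.4% in mESC-ser and 0 in the other 6 lists, with a difference of 4.71 points (exact permutation p = 0.375, adjusted p = 0.562) that rested on MT and was -0.28 without it. Its coverage of the Myh7b locus was 39.0% in MT and 0 in MB and GAS, against 57.6% in mESC-2i, 36.9% in mESC-ser, 5.22% in ADIPO, 5.12% in PIM and 0 in BMDM. There the difference was -7.94 points (exact permutation p = 0.571, adjusted p = 0.686), and its sign turned with lists reduced to equal bases (8.25), among nuclei alone (9.56) and without mESC-2i (1.21).

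H3K27me3 covered less of the chromosome 11 locus in muscle (8.22% in MB, 6.11% in GAS and 2.59% in MT) than in mESC-2i (24.7%) and mESC-ser (10.9%), while BMDM had 8.28% and PIM 5.19%. Relative to the share of the genome under peaks the order differed: MB was 3.96-fold covered, GAS 1.16-fold and MT 0.395-fold, against 4.49-fold in mESC-2i, 3.32-fold in mESC-ser, 2.21-fold in BMDM and 1.33-fold in PIM. The difference of -6.64 points had an exact permutation p of 0.257 (adjusted p = 0.514) and was -2.49 without mESC-2i. For Myh6 and Myh7 the difference was -6.1 points (exact permutation p = 0.829, adjusted p = 0.829), and its sign turned among nuclei alone (2.56) and without mESC-2i (4.74), MB (3.48) or BMDM (2.81). For Myh7b the muscle lists lay close together (25.8% in MB, 26.0% in GAS and 29.6% in MT) while the others ranged from 13.9% in mESC-2i to 70.9% in PIM, a difference of -23.3 points (exact permutation p = 0.229, adjusted p = 0.514).

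**Figure D5:**
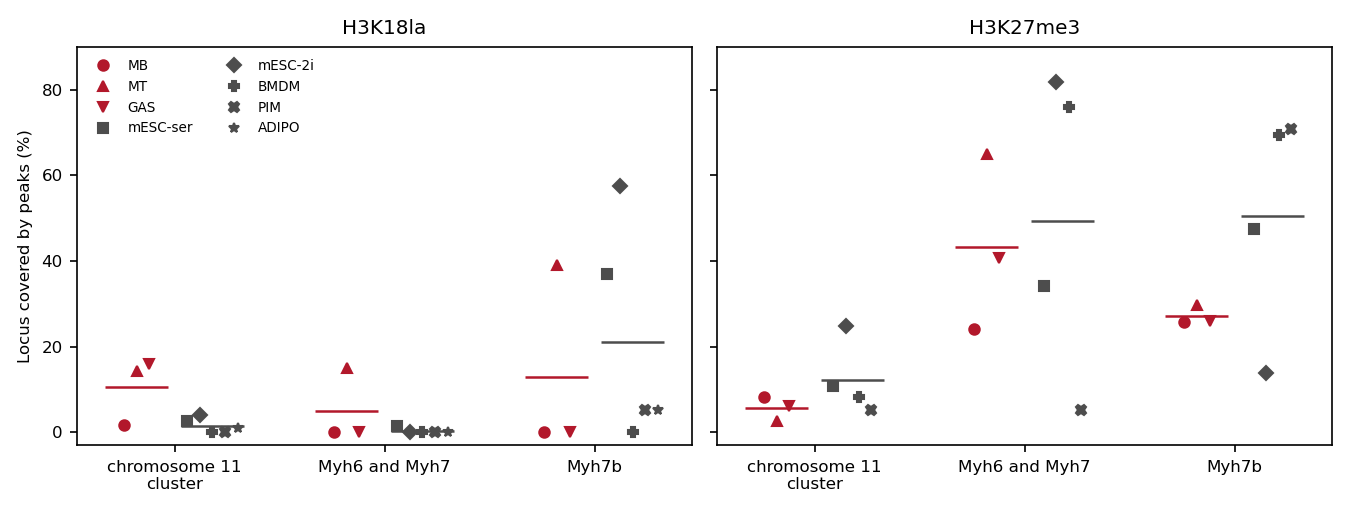
Percent of each locus (members with 2 kb at each end) under H3K18la peaks (left) and H3K27me3 peaks (right). Each point is the list of a cell type (red for MB, MT and GAS, grey for the others) and horizontal lines are group means; GAS and MT stand above the other lists at the chromosome 11 cluster for H3K18la, and MB does not.

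Genes whose products work beside the heavy chains were read at their promoters in the same way, from lists of named genes, beside the shares of all promoters called for H3K18la (11.1% in MB, 34.8% in MT, 36.1% in GAS and 18.5% to 44.7% in the other 5 lists). Of 10 partners in fast fibres, which encode light chains, troponins, actinin and calcium handling proteins, H3K18la was called at 10 in GAS and 9 in MT (all but Mybpc2) and at 1 in MB (Tnnt3), and at 5 in mESC-ser, 4 in ADIPO, 3 in mESC-2i and 2 each in BMDM and PIM. GAS thus had H3K18la at all 10 fast partner promoters. Of the genes for the adult fast chains of the limb, it had H3K18la at the Myh4 promoter and not at those of Myh2 and Myh1. Of 11 slow fibre and cardiac partners, 6 were called in MT, 4 in GAS and 2 in MB, with 7 in mESC-2i, 5 in mESC-ser, 3 in ADIPO, 1 in PIM and 0 in BMDM, so that muscle did not stand above the stem cells and GAS was near the share of all promoters. Of 5 genes listed as developmental, of which Acta1 is also the main actin of adult skeletal muscle, 4 were called in MT (Myl4, Acta1, Chrng and Chrna1), 2 each in GAS, MB and ADIPO, 1 each in mESC-ser, mESC-2i and PIM and 0 in BMDM.

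Among 16 regulators of muscle genes, H3K18la was called at 9 in MB, 14 in MT and 15 in GAS, and at 7 in ADIPO, 6 in mESC-2i and 5 each in mESC-ser, BMDM and PIM, against the shares of all promoters given above. Prox1, a factor linked to slow fibres, was called for H3K18la in none of the 8 lists. Of the 4 heavy chains outside the sarcomere, Myh9 (non-muscle myosin IIA) was called in 8 of 8 H3K18la, 5 of 5 H3K27ac and 4 of 4 H3K4me3 lists and in 0 of 7 H3K27me3 lists, a pattern that no striated member had. Myh10 was called for H3K18la in 4 of 8 lists, Myh14 in 4 of 8 and the smooth muscle gene Myh11 in 1 of 8, which was ADIPO. For H3K27me3 the fast partners were called at 2 of 10 in each of the 3 muscle lists (Mybpc2 and Pvalb), at 4 of 10 in mESC-ser, BMDM and PIM, and at 7 of 10 in mESC-2i. The shares of all promoters were 12.5% in MB, 20.1% in MT and 23.9% in GAS, near the 2 of 10, and 19.2% to 27% in the other 4 lists.

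The genes most like each member were found by Pearson's r across the 24 lists of a score that is 1 for the strongest peak of a list and 0 for no promoter peak, leaving out genes within 1 Mb. The lists share cell types and reads, so r is a description. Nearest to Myh4 were Abra (r = 0.999), an actin-binding activator of muscle gene transcription, and Fsd2 (r = 0.997). Both were called, as Myh4 was, in MT and GAS for H3K18la and in GAS for H3K27ac and H3K4me3 and in no other list, and 17 other genes had exactly the 4 calls of Myh4. Nearest to Myh7 were Lcn5 (r = 0.938), Prom2 (r = 0.934) and Dbh (r = 0.909). All 3 were called, like Myh7, for H3K18la in MT and for H3K27me3 in both mESC lists, MB, MT, GAS and BMDM, and Lcn5 (H3K18la in MB) and Prom2 had further calls. The MB and MT calls of Myh7 for H3K27me3 lie at an internal transcript start, not at the gene start that carries H3K18la in MT. None of the 3 encodes a sarcomere protein. Nearest to Myh7b were Tmem210 (r = 0.865) and Lrrc26 (r = 0.864), which were called from the same H3K18la peaks as each other, and Ppp2r2c (r = 0.757).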

How the data were processed

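CUT&Tag of H3K18la, H3K27ac, H3K4me3 and H3K27me3 was measured in 41 mouse samples. Per the submitters' processing notes and the study's methods, the authors trimmed reads (Trim Galore 0.6.6), aligned them to mm10 (Bowtie2 2.4.4), pooled replicates and called peaks with SEACR 1.3, keeping the top 1% of regions. The deposited lists give each peak's total signal and maximum signal as raw coverage sums. The lists carry no sequencing depth, and the read numbers that the study gives per sample were not used here. The treatment of reads that match several places is not given in the sources used here, and the 6 cluster genes are close paralogs. A blacklist filter is described for the authors' later steps.

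Peaks on chromosomes 1 to 19 and X were overlapped (1 bp) with GENCODE M21 genes, after chromosome lengths were checked against GRCm38. Promoters were 2000 bp on either side of every TSS. Groups came from sample titles. Overlap calls and covered bases equalled those of bedtools 2.31.1 in 20 of 20 simulated runs of 300 promoters. Python 3.11.15, pandas 2.3.3 and pysam 0.24.0 were used. The test was an exact two-sided permutation test. Promoter and body calls, overlaps and likeness have no test.

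The members and gene lists were chosen with earlier results of these data known. All 9 members were named. Other genes came from fixed lists, from the loci, or as the 3 genes most like Myh3, Myh4, Myh7 or Myh7b, of which some are not reported here. The alternatives were promoters of 1000 bp, starts of protein-coding transcripts, 200 bp of overlap, the 5000 peaks of largest total signal, lists reduced to equal bases, other locus ends, coverage relative to the genome, and cell types left out.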

Additional observations from a re-analysis of the deposited data

How the results depend on the processing

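No paired analysis was possible because replicates were pooled before peak calling, and each cell type and hPTM has 1 list. The lowest adjusted p of the exact permutation tests over all alternatives was 0.107, for H3K18la over chromosome 11 relative to the genome, which is the lowest a single difference can reach, so that staying above the threshold says nothing on stability. With H3K18la lists reduced to the bases of the smallest list the Myh7b difference became 8.25 percentage points instead of -7.94, and among nuclei it was 9.56. For H3K27me3 over Myh6 and Myh7 it was 2.56 among nuclei and 4.74 among cell types whose labels name the mark as an antibody, instead of -6.1. In the last 3 of these settings the smallest possible exact p was 0.1, so no test could pass. Leaving out each cell type in turn gave, for H3K18la, 6.47 to 13.7 points at chromosome 11, -0.28 (without MT) to 7.21 at chromosome 14 and -20.9 to 1.21 (without mESC-2i) at Myh7b, and for H3K27me3 -9.01 to -2.49, -20.8 to 4.74 (above 0 without mESC-2i, MB or BMDM) and -35.5 to -16.5. The 48 promoter calls over all lists became 22 with the 5000 peaks of largest signal and 20 with lists reduced to equal bases, and the class of 77 genes became 40 and 16, since fewer peaks were kept. With the first annotated base of each gene alone, an alternative chosen after seeing the data, 40 calls remained and that class held 71 genes. H3K27me3 body calls went from 38 to 24 and 22.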
